A study of Homo sapiens
Mus musculus with 17 samples.

Results

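The genes described here are 10 mouse transcripts that mark macrophages: Emr1, Itgam, Csf1r, Cd68, Mrc1, Cd163, C1qa, C1qb, C1qc and Arg1. They were chosen by name, are 10 of the 23337 genes in the mouse table, and all 10 passed the filter on low values, a minimum average of 10 normalized counts, that left 11831 genes to test. The RNA came from 17 tumours of the cell line VM-CUB-1, derived from a human bladder cancer and grown in athymic nude mice of the strain Hsd:Athymic Nude-Foxn1nu and sequenced as 1 library each. Mice were given a combination of alpelisib at 25 mg/kg and nintedanib at 40 mg/kg (n = 4), alpelisib alone at 25 mg/kg (n = 4), nintedanib alone at 40 mg/kg (n = 5) or vehicle, a methylcellulose and Tween80 solution (n = 4). Every group was treated for 7 days, and the series design calls the xenografts resistant to nintedanib. The titles split the nintedanib tumours into 3 responders and 2 non-responders, whereas the series design gives 2 and 3, so comparisons within nintedanib rest on titles that the design contradicts. All hosts carry the nude mutation of Foxn1 and lack a normal thymus, so mature T cells are largely missing while macrophages are kept. The human cells were 1 cell line throughout, and reads were mapped separately to each genome, so the mouse table stands for host cells only as far as reads of the 2 species were kept apart.

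Macrophages are phagocytes that arise from circulating monocytes or from tissue precursors and depend on signalling through the CSF1 receptor. In tumours they clear dead cells, present antigen, and can promote vessel growth and matrix remodelling. Alpelisib inhibits the alpha isoform of phosphoinositide 3-kinase, and nintedanib inhibits the VEGF, FGF and PDGF receptors. Of the markers, Emr1 encodes F4/80, a surface receptor that defines many mouse macrophages, and Itgam encodes CD11b, an integrin chain shared with monocytes, neutrophils and natural killer cells. Csf1r is the receptor for CSF1 and IL-34. Cd68 is a lysosomal glycoprotein of phagocytes. Mrc1 (CD206) and Cd163 are scavenger receptors, for mannose-bearing glycans and for haemoglobin bound to haptoglobin, and mark alternatively activated or tissue-resident macrophages. C1qa, C1qb and C1qc encode the 3 chains of C1q, the recognition protein of the classical complement pathway, which macrophages themselves make. Arg1 encodes arginase, which breaks down arginine and is induced by type 2 cytokines.

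Before any comparison, the reads of each marker were set against those of its human counterpart, since the tumour cells are human. For C1qa, the mouse table held 100264 reads over the 17 libraries and the human table held 0. C1qb had 58796 mouse and 0 human reads, and C1qc had 51524 mouse reads and 1 human read. The mouse share was 99.9% for Mrc1, 99.2% for Cd163, 98.6% for Csf1r and 91.0% for Itgam. For these 7 genes, then, the human table held few or no reads. Emr1 stood lower, with 11727 mouse and 4027 human reads and a mouse share of 74.4%. Cd68 was divided almost evenly, with 11754 mouse and 12058 human reads, and more human than mouse reads in 7 of 17 libraries. Arg1 had 450 mouse against 2615 human reads, and the human reads were the more numerous in 13 of 17 libraries. How many mouse-table reads of Emr1, Cd68 and Arg1 came from human transcripts was not tested.

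**Figure D1:**
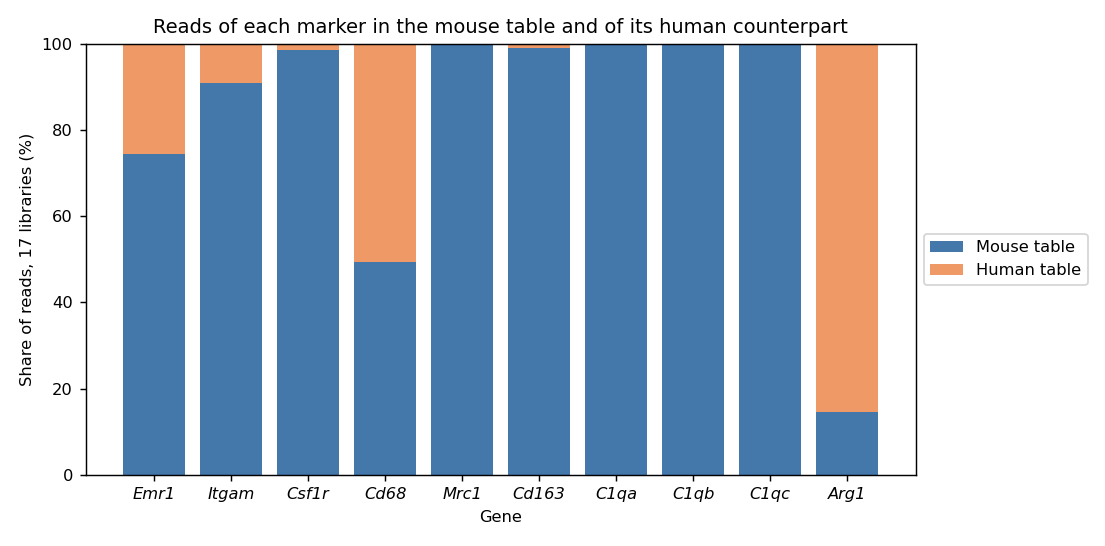
Share of reads (%), summed over the 17 libraries, that stood in the mouse table (blue) and in the human table (orange) for each marker and its human counterpart. The bars of 7 markers are at least 91.0% blue, whereas Emr1 is 74.4%, Cd68 49.4% and Arg1 14.7% blue.

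The libraries held between 2271764 and 7438823 mouse reads, with a median of 5084126. They differed in the share of mouse reads on Rn45s and Lars2, which collect ribosomal RNA. This share was lowest in nintedanib responder 2, at 1.73%, and highest in Vehicle 3, at 72.9% (95% Wilson interval 72.9 to 73.0, counting error only). The next highest were Combination 4 at 60.1%, Alpelisib 3 at 44.1% and Combination 1 at 42.1%. Vehicle 3 was left with 1376733 mouse reads outside these 2 genes, the fewest of any library. Comparisons with vehicle were made with Vehicle 3, and values without it are added for several of the markers whose change it moved. Whether each tumour had a mouse of its own is not in the labels, and the p-values cover only the spread among the tumours sequenced. In bulk RNA, fewer macrophages and less of a transcript per macrophage cannot be told apart.

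Emr1 was the marker with the clearest order across treatments. It stood at 635, 533, 531 and 532 normalized counts in the combination tumours and at 423, 470.3, 426 and 320.5 in the alpelisib tumours. The nintedanib responders had 623, 684 and 489 and the non-responders 809 and 676, against 937, 1011, 840.5 and 683 in the vehicle tumours. Every combination tumour lay below every vehicle tumour, every alpelisib tumour lay below every combination tumour, and the nintedanib tumours overlapped both the combination and the vehicle tumours. By means, alpelisib was lowest (410.0 ± 63.5, SD, n = 4), then the combination (558 ± 51.2, n = 4), the responders (598 ± 99.6, n = 3), the non-responders (743 ± 94.1, n = 2) and vehicle (868 ± 142, n = 4). Among neighbours in that order, only alpelisib and the combination did not overlap.

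**Figure D2:**
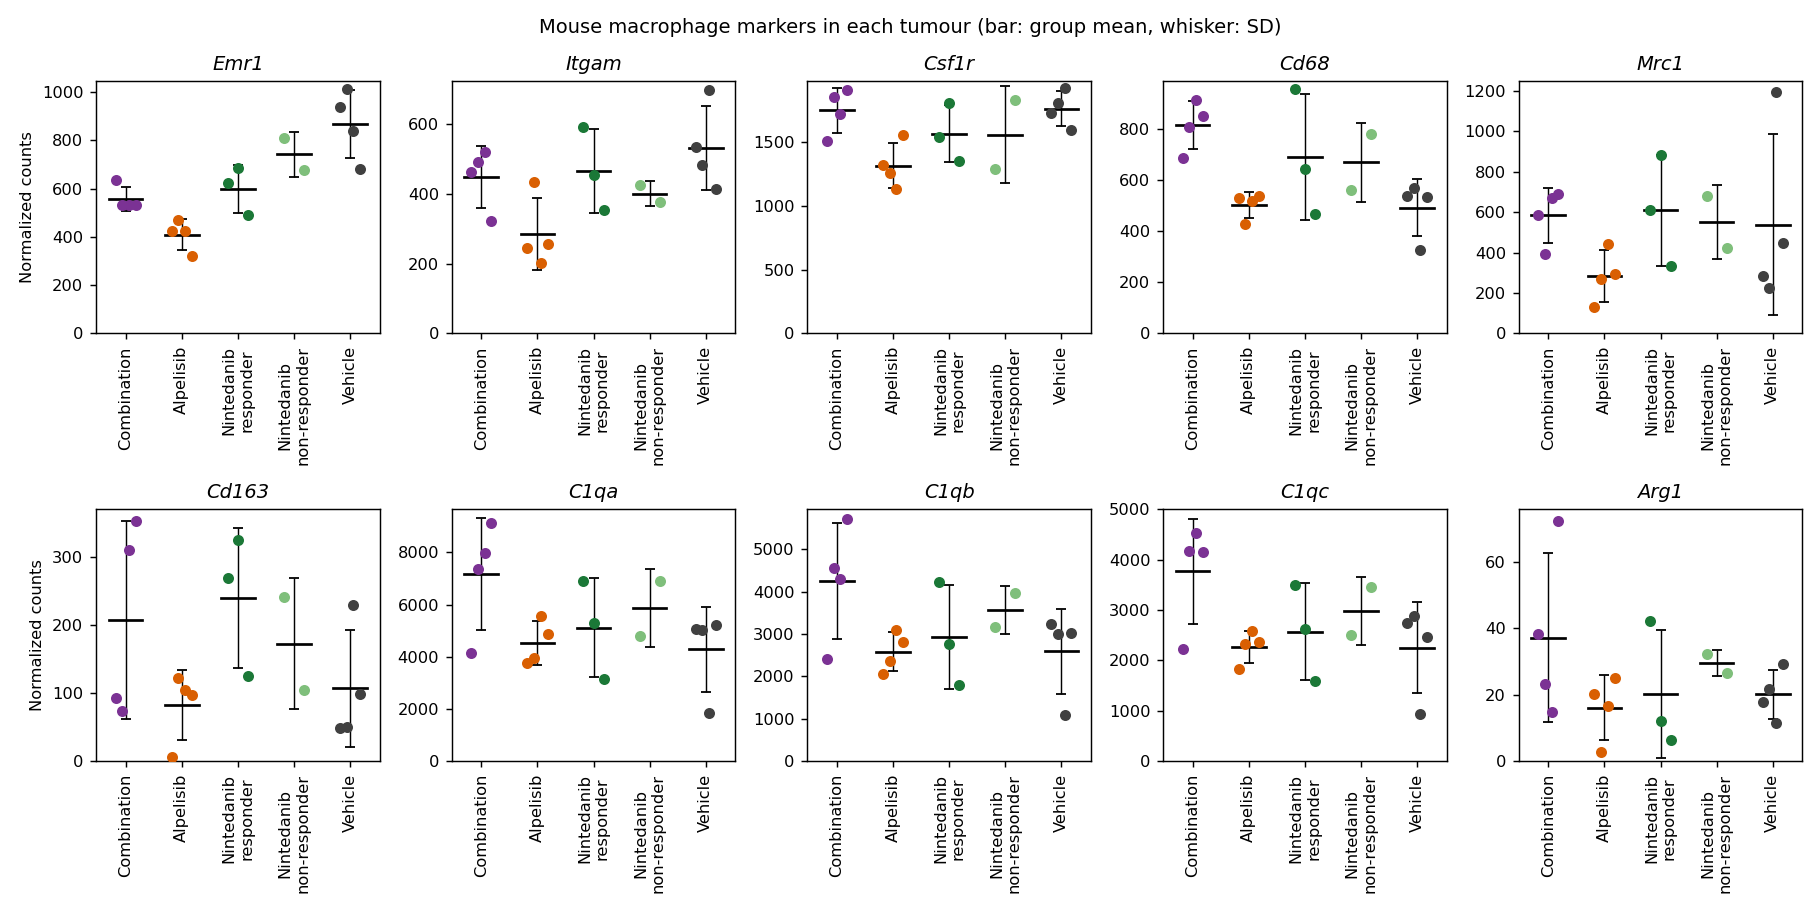
Normalized counts (y axis, linear from 0) of the 10 mouse markers in each tumour. Points are tumours, horizontal bars group means and whiskers 1 SD. For Emr1, every alpelisib and combination tumour lies below every vehicle tumour, and 1 vehicle tumour (Vehicle 3) stands apart for Mrc1, C1qa, C1qb and C1qc.

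Alpelisib alone was set against vehicle first. A fit with limma over all 11831 genes called no marker, and 0% of all genes, at a Benjamini-Hochberg adjusted p under 0.05. Emr1 nevertheless had the smallest p of all tested genes, with a log2 fold change of -1.08 ± 0.19 (SE, 95% interval -1.48 to -0.67, adjusted p = 0.183). Itgam stood at 244, 433, 203 and 257 normalized counts in the alpelisib tumours, against 533, 482, 696 and 412 in the vehicle tumours. Only Alpelisib 2 reached into the vehicle range. Its change was -0.93 ± 0.25 (interval -1.47 to -0.40, adjusted p = 0.256). Csf1r stood at 1321, 1262, 1131 and 1554 in the alpelisib tumours, against 1728, 1810.3, 1922 and 1594 in the vehicle tumours. These groups did not overlap, though Alpelisib 4 and Vehicle 4 were close, and the change was -0.43 ± 0.19 (adjusted p = 0.454). These were the only 3 markers with an unadjusted p under 0.05, all lower, where 4.52% of all genes were lower and 6.03% higher at that p. The markers that did not overlap, Emr1 and Csf1r, numbered 2 of 10, where 3.03% of all genes were lower and 4.18% higher without overlap.

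The other 7 markers had larger p-values in the alpelisib tumours against vehicle. Cd68 had a change of 0.06 ± 0.24, C1qa of 0.18 ± 0.35, C1qb of 0.10 ± 0.35 and C1qc of 0.13 ± 0.34. Mrc1 had -0.73 ± 0.46, Cd163 -0.67 ± 0.77 and Arg1 -0.55 ± 0.62. The intervals of all 7 included 0, though the estimates of Mrc1, Cd163 and Arg1 were further from 0 than that of Csf1r. Over the 10 markers, 4 changes were positive and 6 negative, with a median of -0.49, beside 0.01 over all tested genes. On whole reads recovered from the table, edgeR called none of the 11831 genes. It had 3 markers at an unadjusted p under 0.05, beside 1208 of all genes in either direction. DESeq2 called Emr1 (adjusted p = 6.29e-06) and Itgam (adjusted p = 0.0274) and gave no adjusted p to 2 of the 10 markers. In all it called 113 of the 2645 genes with an adjusted p. Without Vehicle 3, Emr1 had -1.09 ± 0.20, Itgam -0.79 ± 0.26 and Csf1r -0.38 ± 0.19. Only Emr1 and Itgam, 2 of 10 markers, then had an unadjusted p under 0.05, where 2.69% of all genes were lower at that p, and Csf1r had an unadjusted p of 0.0580. Mrc1 had -0.24 ± 0.39 and Cd163 -0.20 ± 0.80 without that tumour. The small positive changes turned negative, to -0.13 ± 0.22 for Cd68, -0.19 ± 0.29 for C1qa, -0.28 ± 0.30 for C1qb and -0.25 ± 0.28 for C1qc. All 10 changes were then negative, with a median of -0.27, beside -0.01 over all genes. With the ribosomal RNA share as a covariate, Emr1 had -1.08 and Itgam -0.93. Without the 4 libraries with most ribosomal RNA, Emr1 had -1.11, whereas Itgam had -0.65.

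**Figure D3:**
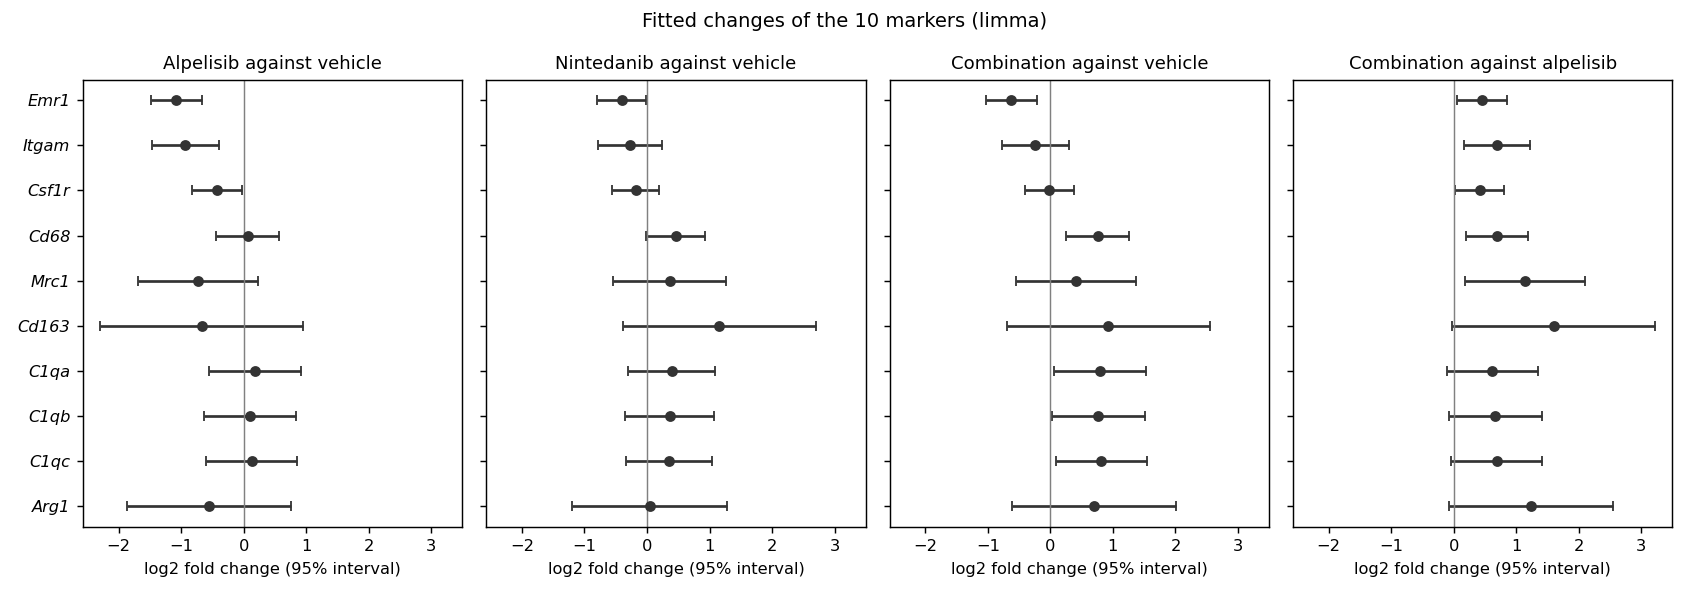
Fitted log2 fold changes (x axis) with 95% intervals from limma for the 10 markers in 4 comparisons. In the alpelisib panel the intervals of Emr1, Itgam and Csf1r lie below 0; in the combination against vehicle panel Emr1 lies below 0 and Cd68 and the 3 C1q genes above it; against alpelisib all 10 points are positive.

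With nintedanib alone, the tumours overlapped those given vehicle for every marker. None of the 10 was called, beside 0.152% of all genes, and none was free of overlap, beside 0.93% of genes higher and 1.52% lower. Emr1 was the only marker with an unadjusted p under 0.05, with a change of -0.41 ± 0.18 (interval -0.79 to -0.02, adjusted p = 0.569), where 3.59% of all genes were lower and 4.88% higher at that p. Cd68 had 0.46 ± 0.22, Cd163 1.16 ± 0.73, C1qa 0.39 ± 0.33, C1qb 0.36 ± 0.34 and C1qc 0.35 ± 0.33, all with intervals that included 0. Mrc1 stood at 610.3, 883 and 333 normalized counts in the responders and 679 and 422 in the non-responders, against 283, 225, 1192 and 449 in the vehicle tumours. Vehicle 3 held the highest of these values, and the other vehicle tumours lay between 225 and 449. Cd163 stood at 269, 324 and 125 in the responders and 240.0 and 104 in the non-responders, against 48.2, 50.2, 230 and 98.9 in the vehicle tumours. Vehicle 3 was again apart from the other vehicle tumours. Without it, Mrc1 had a change of 0.85 ± 0.37 (adjusted p = 0.805) and Cd163 of 1.62 ± 0.76 (adjusted p = 0.879). Both then had an unadjusted p under 0.05, where 2.98% of genes were higher at that p, and Cd163 no longer overlapped, where 1.9% of genes were higher in that way. Cd68 had 0.27 ± 0.21, C1qa 0.03 ± 0.28, C1qb -0.02 ± 0.28 and C1qc -0.03 ± 0.27 without Vehicle 3. Itgam had -0.27 ± 0.24 with Vehicle 3 and -0.13 ± 0.24 without it, and Mrc1 had 0.36 ± 0.43 with it.

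Responders and non-responders were compared by the titles. No marker had an unadjusted p under 0.05, and 2.05% of all genes did, with 0% called. The largest difference was in Arg1, at -0.92 ± 0.81 for responders against non-responders (interval -2.62 to 0.77). Emr1 had -0.32 ± 0.25 and Cd68 0.00 ± 0.31. With 3 and 2 tumours these intervals still allow sizeable differences in either direction.

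In the combination tumours the markers split. Emr1 was lower than in vehicle, at -0.63 ± 0.19 (interval -1.03 to -0.22, adjusted p = 0.115). Cd68 was higher, at 689, 809.6, 915 and 853 normalized counts in the combination tumours against 540.3, 570.2, 326 and 533 in the vehicle tumours. The groups did not overlap, and the change was 0.75 ± 0.24 (interval 0.26 to 1.25, adjusted p = 0.120). No marker was called by limma, beside 0.778% of all genes. Emr1 and Cd68 were the markers without overlap, where 4.74% of all genes were lower and 4.89% higher in that way. Counting an unadjusted p under 0.05, 4 markers were higher (Cd68, C1qa, C1qb and C1qc; 9.67% of all genes) and 1 lower (Emr1; 6.87% of all genes). Itgam had -0.24 ± 0.25 and Csf1r -0.01 ± 0.19. By DESeq2 on recovered reads, Emr1 (adjusted p = 0.0185) and Cd68 (adjusted p = 0.0497) passed, with 481 of 11506 genes called in all. By edgeR none of the 10 passed, beside 69 of 11831 genes. With edgeR 4 markers had an unadjusted p under 0.05, beside 1918 of all genes in either direction.

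The 3 C1q genes ran in parallel across the tumours. C1qa stood at 4141, 7379, 7986 and 9141 normalized counts in the combination tumours and 3752, 3968, 5578 and 4861 in the alpelisib tumours. It stood at 6899, 5316 and 3153 in the responders and 4813 and 6918 in the non-responders, against 5051, 5014, 1862 and 5234 in the vehicle tumours. Combination 1 and Vehicle 3 were each far below the other tumours of their group, so the combination and vehicle groups overlapped through Combination 1. C1qb ranged from 2405 to 5725 in the combination, 2062 to 3097 in the alpelisib and 1805 to 4236 in the nintedanib tumours, against 1089 to 3240.4 in the vehicle tumours. C1qc ranged from 2219 to 4527, 1832 to 2583 and 1586 to 3503 in the combination, alpelisib and nintedanib tumours, against 932 to 2873 in the vehicle tumours. Both had the same low tumours, Combination 1 and Vehicle 3, as C1qa. The changes of combination against vehicle were 0.79 ± 0.35 for C1qa, 0.77 ± 0.35 for C1qb and 0.81 ± 0.34 for C1qc (adjusted p = 0.259, 0.284 and 0.240). Without Vehicle 3, they were 0.43 ± 0.29, 0.39 ± 0.30 and 0.43 ± 0.28, and none of these 3 had an unadjusted p under 0.05. Without Vehicle 3, Cd68 had 0.57 ± 0.22 and Mrc1 0.90 ± 0.39, and these 2 were then the markers higher at an unadjusted p under 0.05, beside 7.7% of genes. With Vehicle 3, Mrc1 had 0.41 ± 0.46. Cd163 had 0.93 ± 0.77 with Vehicle 3 and 1.40 ± 0.80 without it, and Arg1 had 0.69 ± 0.62 and 0.46 ± 0.67. Emr1 without Vehicle 3 had -0.64 ± 0.20 and Itgam -0.10 ± 0.26.

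For Cd68, the human counterpart was also higher in the combination tumours. Human CD68 stood at 794, 1032, 1030.05 and 571 normalized counts in the combination tumours and 965, 582, 754 and 822 in the alpelisib tumours. It stood at 1287, 789.8 and 372 in the responders and 330.1 and 479 in the non-responders, against 374, 226, 363 and 525 in the vehicle tumours. Every combination and every alpelisib tumour was above every vehicle tumour, and of the 14533 human genes past the same filter on low values, 5.27% were higher in that way with the combination and 5.89% with alpelisib. Over the 17 libraries mouse Cd68 and human CD68 had a Pearson r of 0.53, as a description. Mouse Cd68 itself did not follow human CD68 in the alpelisib tumours, where it stood at 532, 427, 518 and 539, all within the vehicle range of 326 to 570.2. For Emr1 the human counterpart ran the other way. Human EMR1 averaged 246 ± 68.1 in the combination, 250.4 ± 72.6 in the alpelisib and 243 ± 52.3 in the nintedanib tumours, against 136 ± 58.6 in the vehicle tumours (SD, n = 4, 4, 5 and 4). Its r with mouse Emr1 was -0.62 (n = 17). What part the division of reads between the 2 genomes had in either change was not tested.

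The combination was also set against alpelisib alone, which shares the alpelisib dose. All 10 markers had a positive change, with a median of 0.69, beside 0.01 over all genes, of which 51.6% were positive. The changes were 0.45 ± 0.19 for Emr1, 0.69 ± 0.25 for Itgam, 0.41 ± 0.19 for Csf1r, 0.69 ± 0.24 for Cd68 and 1.14 ± 0.46 for Mrc1. These 5 had an unadjusted p under 0.05, where 2.53% of all genes were higher and 3.65% lower at that p, and their adjusted p lay between 0.656 and 0.790. Emr1 and Cd68 did not overlap between the groups, where 1.62% of all genes were higher and 2.14% lower in that way. Mrc1 stood at 584, 391, 670.4 and 689 normalized counts in the combination tumours, against 129, 268, 441 and 294 in the alpelisib tumours. Only Alpelisib 3 lay above the lowest combination tumour. Cd163 stood at 92.0, 73.4, 310.0 and 353 in the combination tumours, against 6.23, 122, 104 and 96.3 in the alpelisib tumours, and the groups overlapped. Its change was 1.60 ± 0.77 (interval -0.02 to 3.22). The sum of the 10 markers ranged from 12779 to 23750 normalized counts in the combination tumours and from 10323 to 14096 in the alpelisib tumours. None of the 10 was called by limma (0.00845% of all genes), edgeR (0 of 11831 genes) or DESeq2 (22 of 11724 genes with an adjusted p). At an unadjusted p under 0.05, limma had 5 of the 10 markers, edgeR 6 and DESeq2 9. Over all 11831 genes, in either direction, the counts at that p were 731, 788 and 835.

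Against nintedanib alone, no marker of the combination tumours had an unadjusted p under 0.05, beside 7.02% of all genes, and 0% of genes were called. The changes ran from -0.23 ± 0.73 in Cd163 and -0.22 ± 0.18 in Emr1 to 0.65 ± 0.59 in Arg1. The departure from additivity, the log2 change of the combination beyond the summed changes of the single drugs, was positive for all 10 markers. The marker median was 0.52, beside -0.04 over all genes, of which 46.9% were positive. Cd163 turned to -0.024 without Vehicle 3 and to -0.53 without Alpelisib 1. The departure was 0.86 ± 0.27 for Emr1, 0.96 ± 0.35 for Itgam and 0.60 ± 0.26 for Csf1r. These 3 had an unadjusted p under 0.05, where 2.1% of all genes were higher and 2.72% lower at that p, and each had an adjusted p of 0.840, with 0% of genes called. This comparison reuses the alpelisib and vehicle tumours of the comparisons above.

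All tumours given alpelisib, alone or in combination, were then set against those not given it. Emr1 had -0.65 ± 0.13 (interval -0.93 to -0.37, adjusted p = 0.0597) and ranked 24th of the 11831 genes by p. Itgam had -0.45 ± 0.17 (adjusted p = 0.283), and -0.21 without the 4 libraries with most ribosomal RNA. This contrast averages the change of alpelisib against vehicle and that of the combination against nintedanib. Those changes were -1.08 ± 0.19 and -0.22 ± 0.18 for Emr1, and -0.93 ± 0.25 and 0.03 ± 0.24 for Itgam. In the averaged contrast, Emr1 and Itgam, 2 of 10 markers, were lower at an unadjusted p under 0.05, beside 5.93% of all genes lower and 6.91% higher. Of all genes, 0.186% were called. Emr1 passed without Combination 1 (-0.68, adjusted p = 0.0466), without Vehicle 3 (-0.65, adjusted p = 0.0447), with a minimum mean of 50 (adjusted p = 0.0440), with limma-voom (adjusted p = 0.0441) and with DESeq2 (adjusted p = 0.000146). Over all settings its adjusted p ranged from 0.000146 to 0.155. The other 8 markers had intervals that included 0. Genes of some other host cells had changes of the same sign in this comparison. All 8 natural killer cell genes had a negative change (4 at an unadjusted p under 0.05, median -1.19), as had 6 of 7 T cell genes (2 at that p, median -1.31) and all 4 tested adipocyte genes (3 at that p, median -1.80), where the median over all genes was -0.01 and none of these genes was called. Gzmb, Prf1, Cd3d, Cd3e, Cd3g, Cd8a, Adipoq and Cidec, among these genes, were at 0 in at least 1 library. Of the other lists, 6 of 7 endothelial, all 7 skeletal muscle, 4 of 7 fibroblast and 3 of 5 tested dendritic cell genes were negative. By contrast, 4 of 5 tested neutrophil and 3 of 5 tested mast cell genes were positive. No gene of these other lists had an unadjusted p under 0.05. Natural killer cells and neutrophils also carry Itgam, and the part of these cells in the values of Emr1 and Itgam was not tested.

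Arg1 had low counts, with means of 37.1 ± 25.4 normalized counts in the combination, 16.1 ± 9.65 in alpelisib and 23.8 ± 14.6 in nintedanib tumours, against 20.0 ± 7.39 in vehicle tumours. Its highest value was 72.3 in Combination 4 and its lowest 2.62 in Alpelisib 2. The groups overlapped in every comparison, and every interval of its changes included 0, with SE between 0.43 and 0.86. Human ARG1 exceeded it in most libraries, as given above.

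The markers fell into blocks across tumours. Correlations of log2 levels over the 17 libraries are given as a description, since the libraries share treatments, depth and ribosomal RNA content. C1qa, C1qb and C1qc had Pearson r of 0.97 to 0.99 with each other, and Cd68 had 0.86 to 0.88 with them. Taken as deviations from group means, these were 0.97 to 0.99 and 0.86 to 0.88. Without Vehicle 3, Cd68 and C1qa had 0.83. Mrc1 and Cd163 formed a second pair, at 0.86 over all libraries, 0.82 within groups and 0.89 without Vehicle 3. Emr1 and Itgam had 0.71 over all libraries and 0.41 within groups. Emr1 and C1qa had -0.12 over all libraries and -0.05 within groups. Several values between blocks moved without Vehicle 3. Mrc1 and C1qa went from 0.03 to 0.53, Cd68 and Mrc1 from 0.16 to 0.56, and Emr1 and C1qa from -0.12 to 0.10. Csf1r went from 0.23 to 0.62 with C1qa and from 0.32 to 0.62 with Cd68. Emr1 and Mrc1 instead fell from 0.30 to 0.19. The separation of the blocks over all libraries thus rests in part on 1 library.

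**Figure D4:**
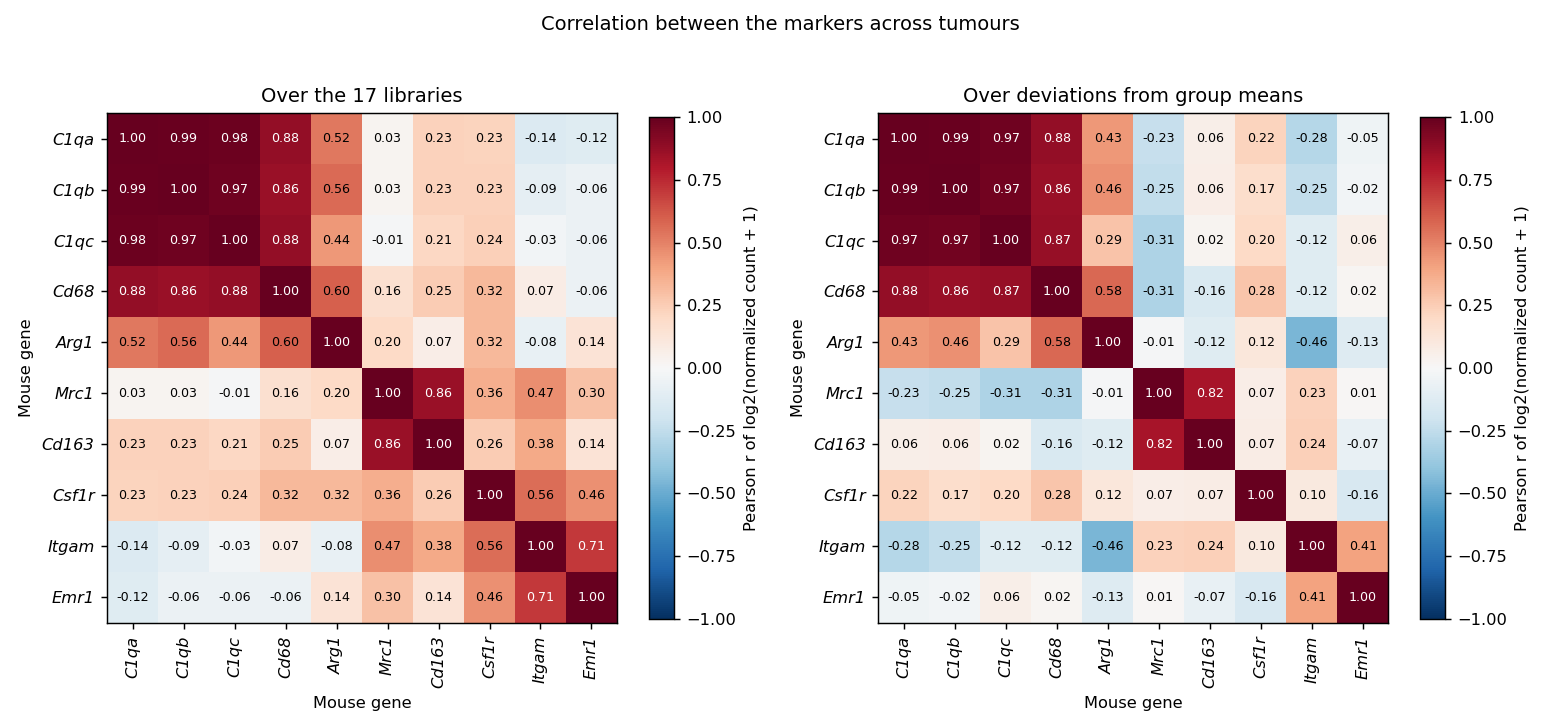
Pearson r between log2 levels of the markers over the 17 libraries (left) and over deviations from group means (right), with red positive and blue negative. The 3 C1q genes and Cd68 form 1 block (0.86 to 0.99), Mrc1 and Cd163 a pair (0.86 and 0.82), and Emr1 and Itgam a weaker pair (0.71 and 0.41).

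Ratios within a tumour showed the same division without reference to library scaling. C1qa over C1qb lay between 1.52 and 1.92 in all 17 tumours. Cd68 over Emr1 lay between 1.09 and 1.72 in the combination, 0.909 and 1.68 in the alpelisib and 0.694 and 1.54 in the nintedanib tumours, against 0.389 and 0.781 in the vehicle tumours. Every combination and alpelisib tumour was above every vehicle tumour in this ratio, and the nintedanib tumours overlapped the vehicle tumours. C1qa over Emr1 lay between 6.52 and 17.2 in the combination, 8.43 and 15.2 in the alpelisib and 5.94 and 11.1 in the nintedanib tumours, against 2.21 and 7.66 in the vehicle tumours. Csf1r over Emr1 lay between 2.38 and 3.59 in the combination, 2.65 and 4.84 in the alpelisib and 1.59 and 2.77 in the nintedanib tumours. In the vehicle tumours it lay between 1.79 and 2.33, and only the nintedanib tumours overlapped these. Mrc1 over Emr1 lay between 0.734 and 1.29 in the combination, 0.306 and 1.04 in the alpelisib and 0.625 and 1.29 in the nintedanib tumours. In the vehicle tumours it lay between 0.223 and 1.42, highest in Vehicle 3, and every group overlapped vehicle. The ratios over Emr1 share that gene, which was itself lower in every alpelisib and combination tumour than in any vehicle tumour. Non-overlap of ratios was not counted over other gene pairs. A ratio shows that 2 transcripts changed unequally, not which of them changed.

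**Figure D5:**
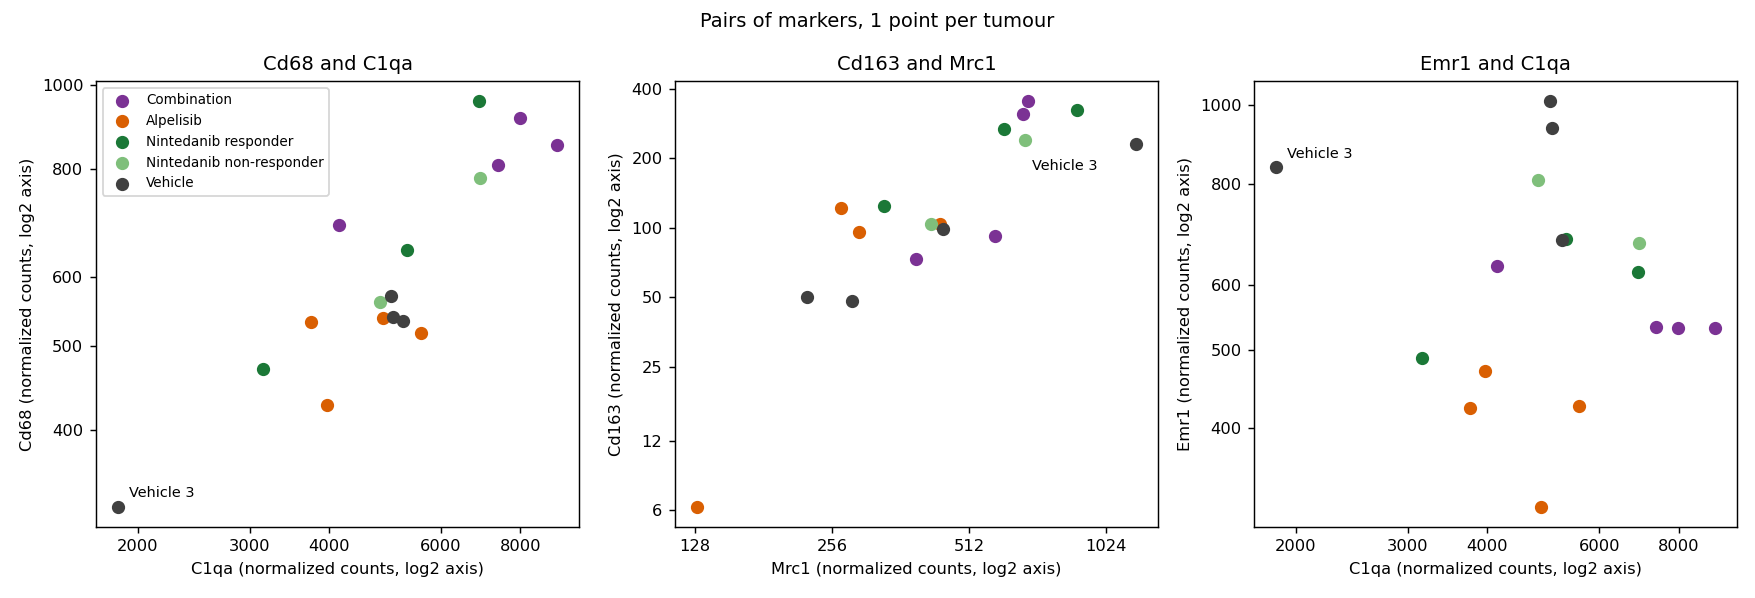
Normalized counts (both axes log2) of Cd68 against C1qa, Cd163 against Mrc1 and Emr1 against C1qa, with 1 point per tumour coloured by group. Cd68 tracks C1qa and Cd163 tracks Mrc1, whereas Emr1 spreads across the range of C1qa with r = -0.12, and Vehicle 3 stands apart in each panel.

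Genes whose levels were most like those of the markers were looked up among 7782 other mouse genes that averaged 50 normalized counts or more. The mean log2 level of the C1q genes over the 17 libraries was most like that of Paox, a polyamine oxidase (r = 0.97), Cotl1, an actin-binding protein (0.96), 0610031J06Rik (0.96), Dnase2a, a lysosomal nuclease (0.95), and Aes (0.95). Emr1 was most like Pip4k2a, a phosphoinositide kinase (0.89), Mpeg1, the pore-forming perforin-2 of macrophages (0.87), Cadm1, an adhesion molecule (0.84), Lyn, a kinase of myeloid and B cells (0.83), and Fyb, an adaptor of leukocytes (0.82). Arg1 was most like Creg1 (0.77), Mocs1 (0.76), Smagp (0.76), Slc37a2 (0.75) and Aldh2 (0.73). The genes most like Emr1 and those most like C1q had no member in common. The low correlation of Emr1 with C1qa (r = -0.12) already implied this, so it adds nothing further.

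Other macrophage genes, listed by function, gave the setting of the markers. None of the genes in the 6 lists was called in any treatment against vehicle. Over all tested genes, the median change was -0.02 with the combination, 0.01 with alpelisib and 0.02 with nintedanib, and 48.2%, 50.9% and 51.9% of changes were positive. Of 18 core macrophage and phagocyte genes, 9 changes were positive and 9 negative with alpelisib (5 lower and 0 higher at an unadjusted p under 0.05, beside 4.52% of all genes lower and 6.03% higher), with a median of 0.00. Mpeg1 averaged 1685 ± 249 normalized counts in the combination and 1339 ± 304 in the alpelisib tumours, against 2743 ± 392 in the vehicle tumours. Its change was -0.70 ± 0.21 with the combination (adjusted p = 0.106), -1.05 ± 0.21 with alpelisib (adjusted p = 0.183) and -0.56 ± 0.20 with nintedanib (adjusted p = 0.455). Ptprc (CD45), carried by all leukocytes, had -1.16 ± 0.29 with alpelisib (adjusted p = 0.224). Cd14, the lipopolysaccharide co-receptor, had 1.01 ± 0.35 with the combination (adjusted p = 0.156), where 12 of the 18 were positive. Clec4n, the receptor dectin-2, had 0.82 ± 0.33 with nintedanib.

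Among 10 tested genes of the CSF1 axis and of macrophage lineage factors, Csf1, the ligand of Csf1r, averaged 191 ± 37.6 normalized counts in the combination, 201 ± 74.6 in the alpelisib and 252 ± 57.6 in the nintedanib tumours, against 245 ± 57.2 in the vehicle tumours. The groups were within their spread. Cebpb, a transcription factor of myeloid cells and many others, had 0.76 ± 0.26 with the combination, 0.76 ± 0.26 with alpelisib and 0.53 ± 0.25 with nintedanib (adjusted p = 0.149, 0.333 and 0.585). Csf2rb, the shared receptor chain for GM-CSF and IL-3, had 0.36 ± 0.21 with nintedanib. The monocyte recruitment list, of 10 genes, had medians of -0.28 with the combination, -0.19 with alpelisib and 0.41 with nintedanib. Cx3cr1, the fractalkine receptor, averaged 318 ± 114 in the combination, 328 ± 80.3 in the alpelisib and 314 ± 118 in the nintedanib tumours, against 653 ± 217 in the vehicle tumours. Its changes were -1.06 ± 0.35, -0.96 ± 0.35 and -1.10 ± 0.33 (adjusted p = 0.139, 0.373 and 0.308). Ly6c2 had 1.98 ± 0.50 and Ly6c1 1.36 ± 0.37 with nintedanib (adjusted p = 0.167 and 0.236). Both are Ly-6 family genes, of which Ly6c2 marks classical monocytes and Ly6c1 is also made by endothelium, and as near-identical copies they may share reads. Ccr2, the receptor of CCL2, had -0.58 ± 0.28 with alpelisib, and Ccl12, one of its ligands, -0.50 ± 0.31 with the combination.

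Of 14 tested genes of alternative activation and tissue residence, 13 were positive with nintedanib (median 1.04, 8 higher and 1 lower at an unadjusted p under 0.05, beside 4.88% of all genes higher and 3.59% lower) and 11 with the combination (median 0.75). Several lists of other host cells were also mostly positive with nintedanib. These were all 8 natural killer cell, all 7 fibroblast, all 4 tested adipocyte and 6 of 7 T cell genes. By contrast, all 7 endothelial and 6 of 7 skeletal muscle genes were negative. Of 5 tested mast cell genes, 4 were higher and 1 lower at an unadjusted p under 0.05 with nintedanib (median 1.71). With the combination 2 mast cell genes were higher at that p (median 1.36), and none was called. Tpsb2, a mast cell tryptase, had 2.85 ± 0.78 with nintedanib (adjusted p = 0.236), and Kit, the stem cell factor receptor, -0.60 ± 0.27 (adjusted p = 0.569). Whether mast cells or these other cells had a part in the values of the alternative activation list was not tested. With alpelisib 5 of its 14 tested genes were positive (median -0.12). Retnla, a secreted protein induced by type 2 cytokines, ranged from 178 to 2583 normalized counts in the nintedanib tumours, against 5.71 to 110.2 in the vehicle tumours. Its change was 3.83 ± 0.90 (adjusted p = 0.121). Ccl24, an eosinophil chemokine, ranged from 18.1 to 58.3 in the nintedanib tumours, against 2.30 to 7.30 in the vehicle tumours, with a change of 2.43 ± 0.55 (adjusted p = 0.104) and 1.58 ± 0.58 with the combination (adjusted p = 0.177). Pltp, a phospholipid transfer protein, had 1.06 ± 0.26 with the combination (adjusted p = 0.0617). With alpelisib, F13a1, the coagulation factor XIII chain of resident macrophages, had -1.08 ± 0.67, and Stab1, a scavenger receptor, -0.34 ± 0.23. Over 12 lipid-associated macrophage genes, 10 were positive with the combination (median 0.67), 7 with alpelisib (median 0.10) and 9 with nintedanib (median 0.45). With the combination, the lipid receptor Trem2 had 1.39 ± 0.47 (adjusted p = 0.144) and the glycoprotein Gpnmb 1.38 ± 0.48 (adjusted p = 0.151). With alpelisib, Cd36, a fatty acid receptor also made by adipocytes and capillaries, had -1.46 ± 0.45 (adjusted p = 0.284) and Fabp5, a fatty acid carrier, 0.93 ± 0.49. With nintedanib, Lpl, lipoprotein lipase, had 0.99 ± 0.36 and Lgals3, galectin-3, 1.04 ± 0.39.

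Of 15 tested genes of inflammatory activation and antigen presentation, 7 were positive with the combination (median -0.20), 3 with alpelisib (median -0.14) and 13 with nintedanib (median 0.39). Cxcl10, an interferon-induced chemokine, averaged 57.2 ± 25.8 normalized counts in the combination tumours, against 227 ± 158 in the vehicle tumours, with a change of -1.83 ± 0.56 (adjusted p = 0.115). Tnf, the inflammatory cytokine, had -0.98 ± 0.36 with the combination (adjusted p = 0.174). The co-stimulatory gene Cd86 had -0.71 ± 0.27 with alpelisib (adjusted p = 0.398), and Ciita, the regulator of MHC class II genes, -0.56 ± 0.40. With nintedanib the co-stimulatory gene Cd80 had 0.86 ± 0.41 and H2-Aa, an MHC class II chain, 0.68 ± 0.34.

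Markers of other host cells were read beside these values, since several of the 10 genes are not specific to macrophages. The neutrophil list, which bears on Itgam, had 9 genes in the table and summed to 486 to 1893 normalized counts in the combination, 750.0 to 1746 in the alpelisib and 543 to 2478 in the nintedanib tumours, against 723 to 1258 in the vehicle tumours. Camp, Ltf and Ngp were at 0 in at least 1 library, and S100a8, S100a9 and Csf3r in none. The dendritic cell list, of 9 genes, summed to 688 to 891 in the combination, 666 to 1250 in the alpelisib and 604 to 1280 in the nintedanib tumours, against 749.9 to 1709 in the vehicle tumours, with Zbtb46 at 0 in at least 1 library. These 2 sums overlapped between all groups. The natural killer cell list, of 8 genes, summed to 69.7 to 140 in the combination, 80.9 to 227 in the alpelisib and 96.4 to 1197 in the nintedanib tumours, against 92.3 to 367 in the vehicle tumours. The T cell list, of 7 genes, summed to 134 to 198, 93.1 to 352 and 111 to 849 in the combination, alpelisib and nintedanib tumours, against 132 to 561 in the vehicle tumours, with Cd3d, Cd3e, Cd3g and Cd8a at 0 in at least 1 library. The mast cell list, of 7 genes, summed to 105 to 336, 157 to 188 and 146 to 368 in the combination, alpelisib and nintedanib tumours, against 48.9 to 253 in the vehicle tumours.

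Among tissue cells, the endothelial list, which bears on Mrc1 and Cd36 because some endothelia make them, held genes that passed the test. All 7 changes were negative with the combination, with a median of -1.25, and 2 genes fell at an adjusted p under 0.05. These were Pecam1 (CD31, -1.19 ± 0.27, adjusted p = 0.0433) and Cdh5 (VE-cadherin, -1.58 ± 0.35, adjusted p = 0.0415), beside 0.778% of all genes called. Each passed in 7 of the 17 fits that left out 1 library, with adjusted p of 0.0333 to 0.144 for Pecam1 and 0.0223 to 0.140 for Cdh5, and neither passed without Vehicle 3 (adjusted p = 0.0825 for both). With nintedanib alone all 7 changes were also negative, with a median of -1.39. Of these, 6 were lower at an unadjusted p under 0.05, where 3.59% of all genes were lower, and limma called none. Cdh5 had -1.56 ± 0.33 with nintedanib (adjusted p = 0.0806). DESeq2 on recovered reads called Cdh5 (adjusted p = 0.000912) and Pecam1 (adjusted p = 0.0417) with nintedanib alone, beside 93 of 11724 genes. The endothelial sum ranged from 718 to 1171 in the combination, 1247 to 2218 in the alpelisib and 651 to 1464 in the nintedanib tumours, against 1760.1 to 3353 in the vehicle tumours. No endothelial marker was at 0 in any library. The fibroblast list, of 7 genes, summed to 52601 to 94824 in the combination, 26665 to 82243 in the alpelisib and 37775 to 107917 in the nintedanib tumours, against 32568 to 102136 in the vehicle tumours. The adipocyte list, of 6 genes, summed to 44.3 to 795 in the combination, 154 to 271 in the alpelisib and 238 to 1991 in the nintedanib tumours, against 257 to 617 in the vehicle tumours. The skeletal muscle list, of 7 genes, reached 34198 in 1 nintedanib tumour and 11742 in 1 vehicle tumour, beside highest values of 7562 in the combination and 4389 in the alpelisib tumours. What part these cells had in the levels of the macrophage markers was not tested.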

How the data were processed

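Mouse and human gene counts of the 17 tumour libraries were used as deposited. Per the submitters' processing notes, the authors used Bowtie, TopHat and DESeq2 with the builds hg19 and mm10, and no versions are named. The sources used here name no read counter, annotation or strand setting. The deposited values are normalized counts, a signal per gene: read counts divided by a size factor per library. Dividing each column by its step gave whole reads for 100% of values (within 0.01), and no column belonged to another sample (0). Depth is given as recovered mouse reads per library.

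Log2(value + 1) was fitted with limma-trend for the 11831 mouse genes with a mean of at least 10, with 1 mean for each of 5 groups, and 8 contrasts were taken. All 5 nintedanib libraries had equal weight in its mean. The threshold was a two-sided Benjamini-Hochberg adjusted p under 0.05 over all tested genes. Fold changes are on the log2(value + 1) scale, which understates changes of low genes. Recovered reads were also tested with edgeR, DESeq2 and limma-voom. The fit was tested on simulated data. Tools were R 4.3.3, limma 3.58.1, edgeR 4.0.16, DESeq2 1.42.0, Python 3.11.15 and matplotlib 3.10.9.

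The genes, lists and tests were chosen with earlier results of these data known. All 10 markers were named. Of each related list, up to 2 genes with the smallest p per treatment against vehicle were named, and the 5 genes most like C1q, Emr1 and Arg1. The 2 endothelial and 2 mast cell genes were named after their values were seen. The listed genes Spi1 and Ly6g were not analysed here. Alternatives were other scaling, pseudocounts of 0.5 and 5, other filters, other tools, the ribosomal RNA share as covariate, libraries left out and a replicate block. None of the 22 pairs of libraries within a group looked like 1 library deposited again, with a chi-square per gene of 14.83 or more.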

Additional observations from a re-analysis of the deposited data

Results flagged for a closer look

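Over the 40 marker and group combinations with at least 4 tumours, 7 held a tumour far from the others of its group by Dixon's test, which flags about 1 in 20 groups by chance. Vehicle 3 accounted for 4 of them. It was the lowest vehicle tumour for C1qa (1862 normalized counts, nearest 5014), C1qb (1089, nearest 3005), C1qc (932, nearest 2472) and Cd68 (326, nearest 533). Combination 1 was the highest combination tumour for Emr1 (635, nearest 533) and the lowest for C1qc (2219, nearest 4153). Alpelisib 1 was the lowest alpelisib tumour for Cd163 (6.23, nearest 96.3). Vehicle 3 and Combination 1 were among the libraries with the most ribosomal RNA, and Alpelisib 1 had the fewest mouse reads (2271764). In the human table, which the comparisons of the markers do not use, CD68 averaged 857 normalized counts in the combination and 781 in the alpelisib tumours, against 372 in the vehicle tumours, with every combination and alpelisib tumour above every vehicle tumour, as held for 5.27% and 5.89% of human genes.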

How the results depend on the processing

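No marker passed in any of the 8 comparisons with the settings of the report, and most alternatives left that so. The exceptions were DESeq2, with 2 markers for alpelisib against vehicle (Emr1 and Itgam) and 2 for the combination against vehicle (Emr1 and Cd68), and Emr1 in the tumours given alpelisib against those not given it. There 1 marker passed with a minimum mean of 50, with DESeq2, with limma-voom, and without Combination 1 or without Vehicle 3, so that the count ranged from 0 to 1 over the libraries left out. DESeq2 gave an adjusted p to 2645 genes for alpelisib against vehicle, 11506 for the combination against vehicle and 11724 for alpelisib exposure. In each, limma tested 11831 genes. The cause of the differing calls was not tested. Every change of the combination against alpelisib kept its sign under all settings. The same holds for Emr1 in every comparison.

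Other changes turned sign, none of them past the threshold, and the cause was not tested. Some were not near 0 in the report: Arg1 had 0.69 with the combination against vehicle and 0.65 against nintedanib, Cd163 -0.67 with alpelisib and 0.44 for the departure from additivity. Without the 4 libraries with most ribosomal RNA, alpelisib against vehicle had -0.14 for Cd68, -0.29 for C1qa, -0.37 for C1qb and -0.32 for C1qc. In the same setting nintedanib against vehicle had -0.017 for C1qb, -0.030 for C1qc and -0.19 for Arg1. The combination against vehicle had 0.091 for Itgam, 0.064 for Csf1r and -0.27 for Arg1. The combination against nintedanib had -0.11 for Mrc1 and -0.080 for Arg1, and alpelisib-exposed against unexposed tumours had -0.49 for Arg1. For C1qb with alpelisib, edgeR gave -0.0081 and DESeq2 -0.0065. For Mrc1 in the combination against nintedanib, edgeR gave -0.0034, DESeq2 -0.00092 and the ribosomal RNA covariate -0.12. The covariate gave 0.0084 for Csf1r in the combination against vehicle. For Cd68 in responders against non-responders, edgeR gave 0.043, DESeq2 0.039 and TMM scaling 0.041. For Arg1, limma-voom gave -0.17 for nintedanib and -0.12 for alpelisib exposure.

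Leaving out 1 library at a time, alpelisib against vehicle ranged from -0.13 to 0.14 for Cd68, -1.06 to 0.30 for Cd163, -0.19 to 0.31 for C1qa, -0.28 to 0.25 for C1qb, -0.25 to 0.29 for C1qc and -0.86 to 0.090 for Arg1. Nintedanib against vehicle ranged from -0.017 to 0.55 for C1qb, -0.030 to 0.53 for C1qc and -0.22 to 0.42 for Arg1. The combination against vehicle ranged from -0.061 to 0.054 for Csf1r. Against nintedanib it ranged from -0.049 to 0.18 for Itgam, -0.14 to 0.23 for Mrc1 and -0.59 to 0.16 for Cd163. Alpelisib exposure ranged from -0.64 to 0.037 for Cd163 and -0.15 to 0.37 for Arg1. The departure from additivity ranged from -0.53 to 0.83 for Cd163. Responders against non-responders ranged from -0.23 to 0.27 for Csf1r, -0.27 to 0.25 for Cd68, -0.27 to 0.45 for Mrc1, -0.12 to 1.08 for Cd163, -0.51 to 0.070 for C1qa and -0.53 to 0.041 for C1qc. With 1 non-responder left, that tumour was assumed to vary like the other groups.

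Replicate numbers gave no sign of pairing among the combination, alpelisib and vehicle tumours. Of 12 pairs sharing a number across groups, 2 had a correlation over 0.1, as did 14 of 36 pairs with unlike numbers. The nintedanib tumours were left out of this check. It cannot exclude a shared batch, since the deviations over all genes also hold differences between libraries such as the ribosomal RNA share. With a replicate block 0 markers passed in each comparison. The block gave -0.11 for Mrc1 in the combination against nintedanib and -0.060 for Arg1 with alpelisib exposure. For responders against non-responders it gave 0.091 for Cd68 and -0.16 for Mrc1. The endothelial genes Pecam1 and Cdh5 with the combination did not pass with the block, without an expression filter, with the ribosomal RNA covariate or without the 4 libraries (adjusted p between 0.0580 and 0.345), nor did Pecam1 with edgeR (adjusted p = 0.0584). DESeq2 called both with the combination (adjusted p = 0.00196 for Pecam1 and 0.000721 for Cdh5) and with nintedanib alone (0.0417 and 0.000912).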
